A study of Homo sapiens with 9 samples.

Results

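The genes described here code for the proteins of the mitochondrial ribosome. They are the protein-coding genes of the GENCODE annotation whose symbol begins with MRPL or MRPS followed by a digit, and 78 of the 58884 gene identifiers in the expression files met that rule. By present structural knowledge 51 of the 78 belong to the large subunit, 26 to the small subunit, and 1, MRPS36 (also called KGD4), is counted today as a part of the α-ketoglutarate dehydrogenase complex and not of the ribosome. MRPS30 and MRPS18A carry small-subunit symbols but sit in the large subunit, and they are counted there.

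Mitochondria keep a ribosome of their own, which makes the few membrane proteins that the mitochondrial genome encodes, all of them subunits of the respiratory chain or of ATP synthase. Its RNA comes from the mitochondrial genome, whereas every one of its proteins is encoded in the nucleus, translated in the cytosol, imported and assembled on that RNA. Some of its proteins descend from bacterial ribosomal proteins and others were added during the evolution of mitochondria. Proximal tubule cells of the kidney depend heavily on mitochondrial respiration for solute transport.

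RNA-seq covered 3 groups of 3 libraries from HK-2, a human kidney line that derives from proximal tubule epithelium and has been immortalised. Control cells were labelled as untreated, although the general treatment text speaks of a control vehicle. The PM2.5 group received fine particulate matter for 24 h. The lactoferrin plus PM2.5 group received lactoferrin, an iron-binding milk glycoprotein, for 6 h and then PM2.5 for 18 h, so the groups given PM2.5 differ in exposure time as well as in lactoferrin. The stated concentrations are 40 mg/ml lactoferrin and 1 mg/ml PM2.5 and are given for the combined treatment. No group received lactoferrin alone, all libraries come from 1 cell line, and nothing in the labels says that replicates came from separate cultures, so the spread between them may be technical.

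Libraries held between 15314470 and 18816264 assigned reads, as rebuilt from the deposited values. Of 13 proximal tubule marker genes, 12 were under 1 FPKM (fragments scaled to exon length and library depth) in every library, with LRP2 and SLC22A6 at or near 0, while MIOX ranged from 4.87 to 35.6. The epithelial keratins KRT8, KRT18 and KRT19 and EPCAM were present, and CDH1 stayed under 1. Of 8 markers of other cell types, 7 were under 1 FPKM everywhere, and the summed level of the list ran from 6.60 to 8.98 in control, 1.49 to 1.65 in PM2.5 and 1.17 to 1.56 in lactoferrin plus PM2.5, nearly all of it COL1A1. The second principal component of all tested genes set lactoferrin plus PM2.5 replicate 1 apart from the other libraries. The third spread the control libraries, with replicate 3 highest of all libraries (27.0) and replicate 1 lowest (−20.6). Lactoferrin plus PM2.5 replicate 1 and control replicate 3 matter for the genes described here, and the results are given with and without them.

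The mitochondrial ribosomal protein genes were expressed at moderate to high levels. In control cells 5 of the 78 had a mean of at least 50 FPKM, 48 lay between 10 and 50, 21 between 1 and 10, and 4 were under 1. Here and below, a printed FPKM has been divided by the scaling factor of its library. The median of the 76 genes that passed the filter of 0.5 FPKM in at least 3 libraries was 14.9 FPKM, against 4.15 for all 14454 genes that passed it. The highest were MRPL33 at 74.2 ± 11.4 FPKM (SD, n = 3), MRPL3 at 73.0 ± 3.45 and MRPL51 at 71.3 ± 8.58, which do not differ beyond their spread. MRPL33 is a small protein of the large subunit with a bacterial homologue, MRPL3 a core protein shared with all ribosomes, and MRPL51 a protein specific to the mitochondrial large subunit. FPKM is per total exon length of a gene, which for MRPL33 is 1539 bases against 729 in its longest transcript. Levels of different genes can therefore be compared only roughly.

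**Figure D1:**
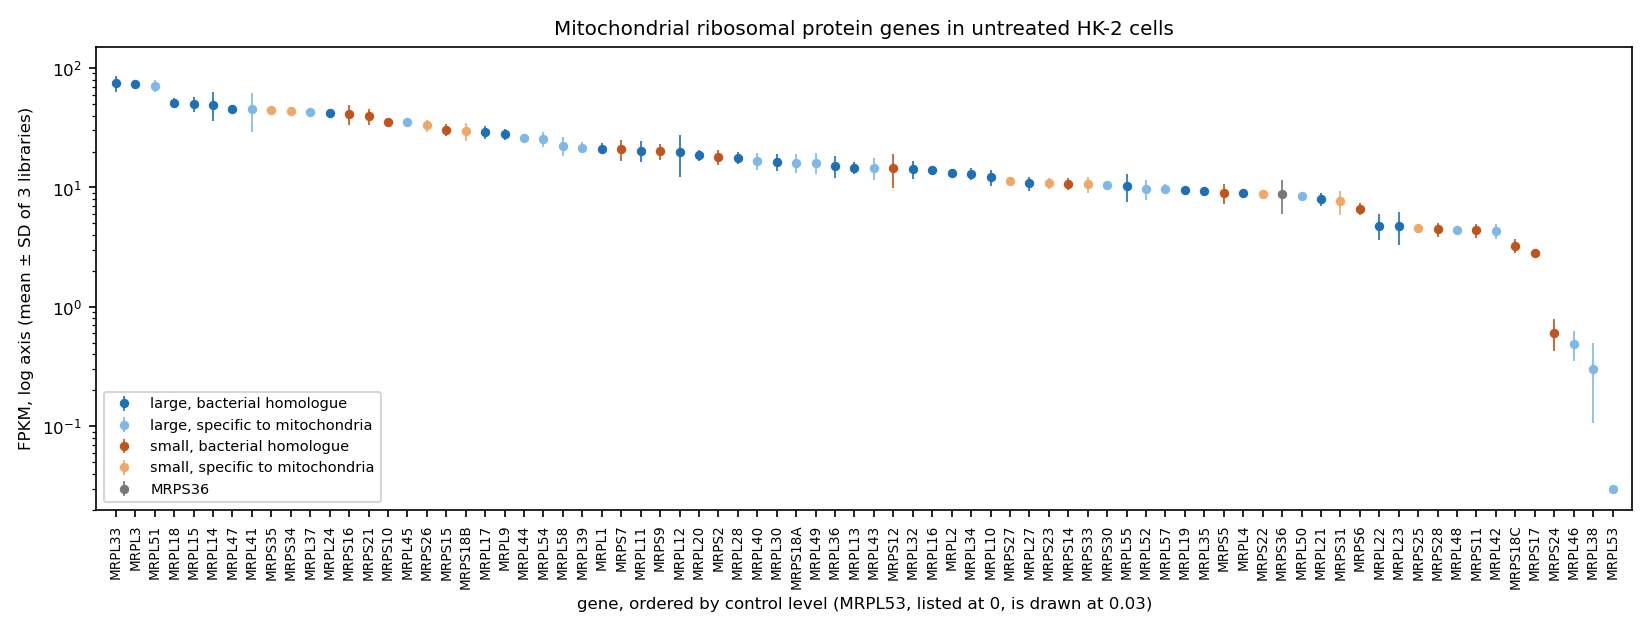
Each point is 1 mitochondrial ribosomal protein gene in control cells, with the mean and SD of 3 libraries on a logarithmic FPKM axis and colours for subunit and origin. Levels fall smoothly from MRPL33 at 74.2 FPKM to MRPS17 at 2.83, and 4 genes lie under 1.

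The 4 genes under 1 FPKM were MRPS24, MRPL46, MRPL38 and MRPL53. MRPS24 averaged 0.607 ± 0.181 FPKM and MRPL46 averaged 0.489 ± 0.139 in control (SD, n = 3), and both passed the filter. MRPL38 ranged from 0.0835 to 0.461 FPKM over the 9 libraries and was not tested. MRPL53 was listed at 0 in every library and was not tested either. In GENCODE, 45.2% of the exon length of MRPL53 also belongs to CCDC142 on the same strand, 37.5% of that of MRPL38 belongs to the readthrough gene AC087289.3, 23.2% of that of MRPS24 to URGCP-MRPS24, and 11.3% of that of MRPL46 to AC013489.1. Exon overlap with another gene was not confined to the low genes: 41 of the 78 had some, and MRPL12, with 68.2% of its exons shared with AC139530.2, was listed at 19.99 ± 7.67 FPKM in control. The part of these overlaps in the listed levels was not tested. In addition, 75 annotated pseudogenes are named after 34 of the genes, and reads shared with such copies cannot be assigned with certainty.

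The genes are scattered over 21 chromosomes, with 8 on each of chromosomes 1, 2 and 17. Their total exon length is short, with a median of 2539 bases per gene, against 4299 for all tested genes. Their GC content, with a median of 47.4%, was close to the 47.9% of all tested genes.

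Exposure to PM2.5 alone was the first comparison. It called 8 of the 76 tested genes higher than in control and 3 lower, at an adjusted p under 0.05 by limma with Benjamini-Hochberg adjustment over all 14454 genes. Among all tested genes 18.7% were called higher and 16.5% lower, so the shares of 10.5% and 3.95% among the mitochondrial ribosomal protein genes were both below the background. The estimates were positive for 46 and negative for 30, with a median log2 fold change of 0.10 against 0.00 for all genes. In bulk RNA, fewer cells with a transcript and less transcript per cell cannot be told apart. MRPL33, MRPL54, MRPS27 and MRPS30 stayed called whichever library was left out, and MRPL45 lost its call without control replicate 2. The other 6 (MRPL44, MRPS2, MRPS10, MRPS14, MRPS17 and MRPS18B) lost theirs without PM2.5 replicate 2. Each of these 6 also lost it without control replicate 2 or without control replicate 3, and in further single omissions.

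The counts themselves moved with single libraries. Genes called higher numbered 3 without PM2.5 replicate 2, 4 without PM2.5 replicate 1 or without control replicate 2 or 3, 5 without PM2.5 replicate 3 or lactoferrin plus PM2.5 replicate 2, and 13 without lactoferrin plus PM2.5 replicate 1. Genes called lower numbered 6 without control replicate 3 or without lactoferrin plus PM2.5 replicate 1. Without control replicate 3 the median log2 fold change was 0.00, and without that library and lactoferrin plus PM2.5 replicate 1 together 13 genes were called higher and 16 lower. Removing a trend in gene length and GC gave 15 higher and 7 lower, and weighting libraries by their spread gave 23 and 16, in each case with the 8 higher genes among them.

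Among the small-subunit proteins, which hold the messenger RNA and the decoding centre, 5 of 26 rose and 1 fell. The 19.2% that rose is close to the 18.7% of all tested genes. MRPS18B, one of the 3 human relatives of bacterial S18, was at 33.7, 31.7 and 24.1 FPKM in control, at 43.3, 39.99 and 40.3 with PM2.5 and at 56.8, 45.6 and 41.1 with lactoferrin plus PM2.5. Every exposed library was above every control library. The log2 fold change with PM2.5 was 0.47 (SE 0.15, adjusted p = 0.0333 by limma). MRPS2, a protein with a bacterial homologue, was at 19.99, 19.1 and 15.1 FPKM in control, at 27.1, 24.1 and 23.3 with PM2.5 and at 30.9, 30.2 and 24.3 with lactoferrin plus PM2.5, and its groups did not overlap with control. Its log2 fold change with PM2.5 was 0.45 (SE 0.13, adjusted p = 0.0245 by limma).

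MRPS27, a pentatricopeptide-repeat protein of the small subunit, was at 12.1, 11.3 and 10.6 FPKM in control, at 15.2, 15.4 and 15.1 with PM2.5 and at 18.4, 17.0 and 15.3 with lactoferrin plus PM2.5. The PM2.5 libraries agreed closely with each other and all lay above control, with a log2 fold change of 0.41 (SE 0.09, adjusted p = 0.00602 by limma). MRPS17 rose from 2.83 ± 0.228 to 3.64 ± 0.245 FPKM (SD, n = 3) and MRPS10 from 35.6 ± 2.39 to 43.6 ± 0.747. Both have bacterial homologues. Their log2 fold changes were 0.31 and 0.29, with adjusted p = 0.0280 and 0.0298 by limma. In MRPS17, 27.0% of the exon length is shared with other genes on the same strand.

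The small-subunit gene that fell was MRPS14, whose bacterial homologue lies in the head of the subunit. MRPS14 was at 12.1, 10.5 and 9.71 FPKM in control, at 8.49, 8.05 and 7.14 with PM2.5 and at 10.6, 8.81 and 7.77 with lactoferrin plus PM2.5. All PM2.5 libraries were below all control libraries, and the lactoferrin libraries spanned both ranges. The log2 fold change with PM2.5 was −0.42 (SE 0.13, adjusted p = 0.0283 by limma). It overlaps 13.5% of its exon length with CACYBP on the opposite strand, a gene at 46.7 to 108 FPKM, and since strand use in the counting is not given in the sources used here, reads from that stretch cannot be told apart.

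Among the large-subunit proteins, which carry the peptidyl transferase centre and the exit tunnel, 3 of 49 tested genes rose and 2 fell. These shares of 6.12% and 4.08% were below the 18.7% and 16.5% of all tested genes called higher and lower. MRPS30, specific to mitochondria and also known as PDCD9, was at 10.8, 10.3 and 10.3 FPKM in control, at 15.0, 16.4 and 15.4 with PM2.5 and at 18.5, 17.6 and 16.2 with lactoferrin plus PM2.5. Both exposed groups lay well above control, and replicates within each group were close. Its log2 fold change of 0.55 with PM2.5 (SE 0.08, adjusted p = 0.000648 by limma) was the highest among the 76 tested genes. No other annotated gene overlaps its exons (ENSG00000112996, chr5:44808925-44820428, plus strand, GRCh38).

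MRPL45, which lies at the exit of the tunnel and faces the inner membrane, was at 38.6, 33.0 and 34.3 FPKM in control, at 47.0, 45.8 and 45.6 with PM2.5 and at 58.4, 52.1 and 47.7 with lactoferrin plus PM2.5. The 3 groups formed 3 separate ranges. Its log2 fold change with PM2.5 was 0.38 (SE 0.09, adjusted p = 0.0124 by limma). MRPL44, a protein with an RNase III-like fold whose variants are known from infantile cardiomyopathy, was at 26.5, 26.2 and 25.3 FPKM in control, at 34.8, 32.8 and 30.5 with PM2.5 and at 46.0, 39.0 and 36.3 with lactoferrin plus PM2.5. Here too no range touched another, and the log2 fold change with PM2.5 was 0.32 (SE 0.10, adjusted p = 0.0299 by limma).

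MRPL33, with the highest mean FPKM of the genes in control cells, fell furthest. MRPL33 was at 72.9, 63.5 and 86.3 FPKM in control, at 44.2, 40.9 and 41.4 with PM2.5 and at 59.7, 48.8 and 42.6 with lactoferrin plus PM2.5. All 6 exposed libraries were below all 3 control libraries. The log2 fold change with PM2.5 was −0.80 (SE 0.14, adjusted p = 0.00251 by limma). Its mean of 42.2 FPKM with PM2.5 no longer ranked first among the genes. It lay below the means of MRPL3, MRPL51 and several others, down to MRPS10 at 43.6. Of its exon length, 21.1% is shared with BABAM2 on the same strand, a gene at 8.05 to 17.0 FPKM (MRPL33: ENSG00000243147, chr2:27771717-27988087, plus strand, GRCh38).

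MRPL54, a large-subunit protein specific to mitochondria, was at 28.3, 26.5 and 21.5 FPKM in control, at 14.5, 15.9 and 16.2 with PM2.5 and at 25.3, 20.7 and 16.2 with lactoferrin plus PM2.5. PM2.5 libraries lay below control without overlap, whereas lactoferrin libraries ran from the upper edge of the PM2.5 range (16.249 against a highest PM2.5 value of 16.244) into the control range. The log2 fold change with PM2.5 was −0.69 (SE 0.16, adjusted p = 0.00873 by limma). No other gene overlaps its exons (ENSG00000183617, chr19:3762664-3768575, plus strand, GRCh38). Among genes that were not called, MRPL1, part of the mobile stalk near the exit site, was at 21.6, 18.8 and 23.1 FPKM in control and at 14.8, 17.5 and 16.5 with PM2.5, with a log2 fold change of −0.37 (adjusted p = 0.0990 by limma). MRPL41 had a log2 fold change of −0.46, but its control libraries ran from 29.002 to 61.6 FPKM and the adjusted p was 0.224 by limma.

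**Figure D2:**
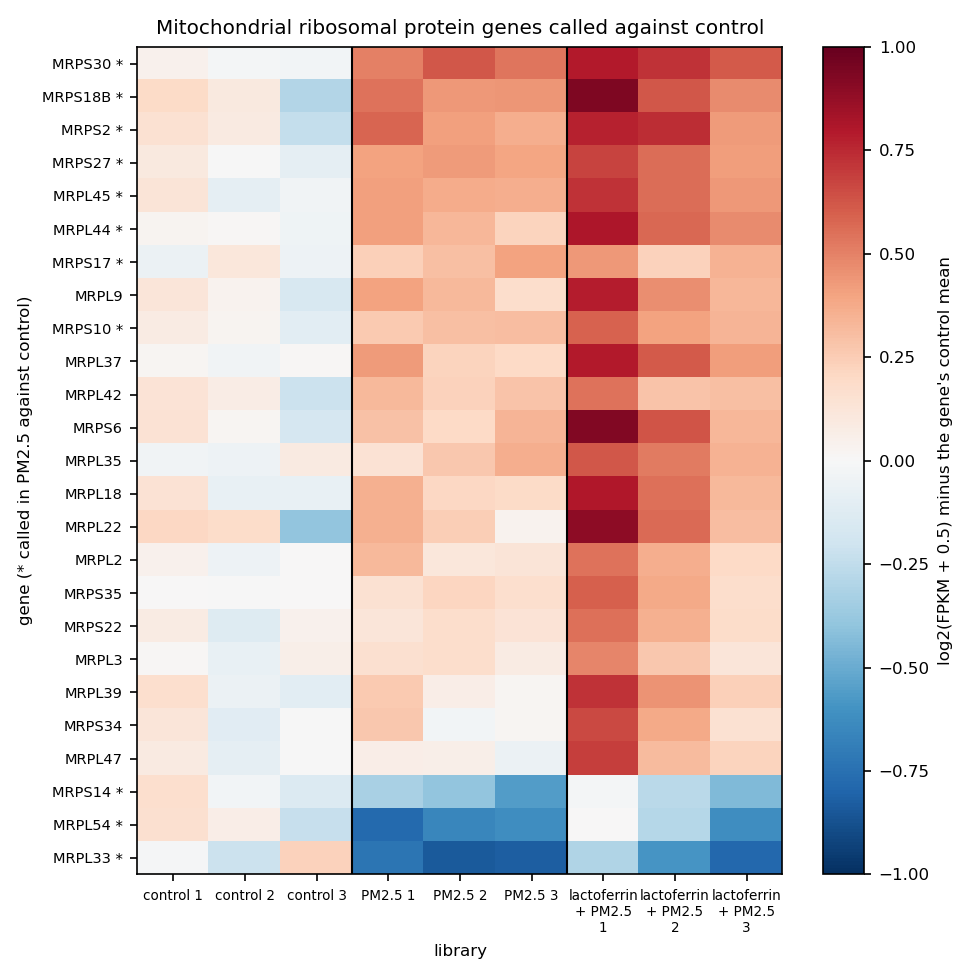
Rows are the 25 mitochondrial ribosomal protein genes called in PM2.5 or in lactoferrin plus PM2.5 against control, columns are the 9 libraries, and colour is log2(FPKM + 0.5) minus the mean of the gene in control. The 22 genes that were higher in lactoferrin plus PM2.5 form the red block, with replicate 1 the deepest, and MRPS14, MRPL54 and MRPL33 form the blue rows at the bottom.

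Counts by bacterial ancestry follow, with MRPS18A and MRPS18B taken as specific to mitochondria although their sequences are related to bacterial S18. Large-subunit genes with a bacterial homologue had 0 called higher and 1 lower of 30 by limma (5 had an unadjusted p under 0.05), with a median log2 fold change of −0.01 under PM2.5. Large-subunit genes specific to mitochondria had 3 higher and 1 lower of 19, with a median of 0.11. The corresponding small-subunit genes had 3 higher and 1 lower of 16 (median 0.11) and 2 higher and 0 lower of 10 (median 0.16). The counts are small beside a background of 18.7% higher and 16.5% lower, and no difference between the role groups was tested.

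Promoter sequence was examined because these genes share no chromosomal position and yet serve 1 particle. RefSeq windows of 250 bases before and 50 after the annotated start (GRCh38.p14) were at hand for 69 of the 78 genes, and both strands were searched for 7 letter strings, each window counted once per string. The ETS string CCGGAAG, the core that GABPA (nuclear respiratory factor 2) binds, was in 29 of 69 windows (42.0%), against 10.7% of all 27305 windows and 19.9% of the 9624 windows of tested genes. The YY1 string AAGATGGCG was in 13 of 69 (18.8%), against 1.85% and 4.09%. It and the NRF1 string given next had been shortened by 1 letter after the first counts of matches were seen. In 10 of the 13 genes with the YY1 string a match begins after the start, in transcribed bases. The string contains ATG, and whether these matches hold the start codon of the protein was not examined. Shares were not counted separately for bases before and after the start. The NRF1 string GCGCATGCG was in 3 of 69 (4.35%), against 3.90% of the windows of tested genes, and the CREB string TGACGTCA in 0, against 1.98% and 3.39%. The E-box CACGTG was in 6 (8.70%, against 7.43% of all windows and 10.5% of those of tested genes), the antioxidant response string TGACNNNGC in 8 (11.6%, against 13.6% and 15.4%), and the C/EBP-ATF string TGATGNAA in 1 (1.45%, against 3.67% and 1.59%). A match describes the letters and is not evidence of binding.

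Of the 8 genes that rose with PM2.5, 3 carry the YY1 string and 1 the ETS string. Of the 3 that fell, 2 carry the ETS string and none the YY1 string in these windows. The YY1 matches are shown because in 10 of the 13 genes, these 5 included, the match begins after the start, within the 50 bases searched there. Each line is 30 bases of the strand of the gene, 5′ to 3′, with the matched string in capitals. The first 3 genes rose in both comparisons with control, and MRPL22 and MRPL42 were called higher only in lactoferrin plus PM2.5 against control.
MRPS30 (chr5:44808950-44808979, plus strand): atcgcgggcaAAGATGGCGgcggccaggtg
MRPS18B (chr6:30617853-30617882, plus strand): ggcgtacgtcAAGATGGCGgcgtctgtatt
MRPS10 (chr6:42217833-42217862, minus strand): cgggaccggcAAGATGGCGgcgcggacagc
MRPL22 (chr5:154941093-154941122, plus strand): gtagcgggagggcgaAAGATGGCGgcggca
MRPL42 (chr12:93467512-93467541, plus strand): ggattgaaacAAGATGGCGggttcgtggtg

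The ETS matches of 5 called genes printed next begin 8 to 39 bases before the start and occur on either strand. MRPS22 and MRPS34, also called higher in lactoferrin plus PM2.5 against control, carry ETS matches that are not printed. Some of those lie farther out, up to 87 bases before the start in MRPS22 and 71 in MRPS34. MRPL33 and MRPL54 fell with PM2.5, MRPS10 rose, and MRPL3 and MRPL47 were called higher in lactoferrin plus PM2.5 against control. The same string is thus present in genes that moved in opposite directions.
MRPL33 (chr2:27771700-27771729, plus strand): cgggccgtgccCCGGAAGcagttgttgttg
MRPL54 (chr19:3762650-3762679, plus strand): gccactgacgtCTTCCGGaaacgtgcactt
MRPS10 (chr6:42217865-42217894, minus strand): ccgctgtaaccCCGGAAGcaatcctgagag
MRPL3 (chr3:131502985-131503014, minus strand): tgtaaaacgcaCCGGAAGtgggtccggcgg
MRPL47 (chr3:179604659-179604688, minus strand): ggcttgagacgCCGGAAGtgacgctatcgt

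The stretches upstream of the 3 genes that fell are printed in full, since they went against the sign of most of the genes. Each ends where the annotated gene begins. Only MRPS14 holds one of the 7 strings within its stretch, the antioxidant response string read on the other strand, in capitals. The ETS strings of MRPL33 and MRPL54 shown above run past the end of theirs. GC content was 58.9% for MRPL33, 43.5% for MRPL54 and 59.6% for MRPS14.
MRPL33 (chr2:27771469-27771716, plus strand): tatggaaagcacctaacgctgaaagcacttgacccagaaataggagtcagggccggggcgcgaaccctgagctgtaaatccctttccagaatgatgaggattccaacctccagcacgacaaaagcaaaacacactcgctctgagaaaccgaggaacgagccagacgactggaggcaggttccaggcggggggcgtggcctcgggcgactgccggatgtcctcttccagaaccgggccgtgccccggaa
MRPL54 (chr19:3762432-3762663, plus strand): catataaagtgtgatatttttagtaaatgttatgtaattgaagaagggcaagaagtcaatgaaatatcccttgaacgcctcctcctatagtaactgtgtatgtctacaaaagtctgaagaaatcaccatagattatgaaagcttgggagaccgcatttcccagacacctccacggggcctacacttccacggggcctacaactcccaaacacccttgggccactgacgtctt
MRPS14 (chr1:175023426-175023675, minus strand): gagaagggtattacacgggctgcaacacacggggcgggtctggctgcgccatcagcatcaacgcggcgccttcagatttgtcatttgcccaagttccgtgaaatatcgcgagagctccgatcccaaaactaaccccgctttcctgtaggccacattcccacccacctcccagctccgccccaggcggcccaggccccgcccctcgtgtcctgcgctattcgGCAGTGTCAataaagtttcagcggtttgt

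Adding lactoferrin before PM2.5 was the second comparison. With PM2.5 as the reference, no mitochondrial ribosomal protein gene was called in either direction by limma, where 0.0208% of all tested genes were called higher and 0.0277% lower. The adjusted p ran from 0.339 to 0.975 over the 76 genes, 17 had an unadjusted p under 0.05, and limma-voom on reads rebuilt from the FPKM called 0 as well. With libraries weighted by their spread, where lactoferrin plus PM2.5 replicate 1 had the lowest weight, 27 were called higher. The estimates were nonetheless almost all of 1 sign: 74 were positive and 2 negative, with a median log2 difference of 0.24 against 0.00 for all genes. Positive estimates were as common in 2 related families, with 82 of 84 tested cytosolic ribosomal protein genes and 59 of 61 nuclear respiratory complex genes. In 11 of the 76 genes every lactoferrin library was above every PM2.5 library, and in 0 was every one below, where 9.22% and 11.5% of all tested genes showed such separation upward and downward.

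MRPL51 had the highest estimate. It was at 61.8, 59.5 and 52.6 FPKM with PM2.5 and at 97.2, 77.4 and 65.2 with lactoferrin plus PM2.5, after 81.1, 65.6 and 67.1 in control. Of the exon length of MRPL51, 31.3% overlaps NCAPD2 on the opposite strand, a gene at 17.8 to 35.0 FPKM. Reads from that stretch cannot be told apart, since strand use in the counting is not given. The groups with and without lactoferrin did not overlap, and the log2 difference was 0.44 (95% interval 0.11 to 0.78, adjusted p = 0.362 by limma). MRPS28 followed at 0.41 (0.06 to 0.76, adjusted p = 0.386 by limma) with overlapping groups, and MRPL1 at 0.40 (0.05 to 0.76, adjusted p = 0.395 by limma) with separate ones. At the other end, MRPS25 was at 5.99, 5.30 and 5.55 FPKM with PM2.5 and at 6.17, 5.12 and 5.09 with lactoferrin plus PM2.5, a log2 difference of −0.04 (−0.26 to 0.18). MRPS24, under 1 FPKM throughout, had −0.02 (−0.47 to 0.43) and MRPL19 had 0.03, and the sign of these 3 small estimates changed with the processing.

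For the 3 genes that fell with PM2.5 the estimates with lactoferrin pointed upward, without passing the test. They were 0.24 for MRPL33 (−0.08 to 0.56), 0.38 for MRPL54 (0.03 to 0.74) and 0.18 for MRPS14 (−0.11 to 0.46), with adjusted p = 0.468, 0.400 and 0.522 by limma. Intervals of this width allow differences from near 0 to more than the fall itself in MRPL54. All 8 genes that had risen with PM2.5 also had positive estimates, among them 0.16 for MRPS30 (−0.01 to 0.33). Because the PM2.5 libraries serve as the reference here and as the exposed group above, the signs of the comparisons are not independent.

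The lactoferrin replicates were ordered alike in nearly every gene. Replicate 1 was the highest of its group in 75 of 76 genes and replicate 3 the lowest in 72. Relative to the control mean, the median over the 76 genes was 0.56 in lactoferrin plus PM2.5 replicate 1, 0.27 in replicate 2 and 0.08 in replicate 3, and 0.15, 0.06 and 0.02 in the PM2.5 libraries. Control replicate 1, at 0.16, stood above replicate 2 at −0.02 and replicate 3 at −0.11, and it was the highest of its group in 64 genes. PM2.5 replicate 1 was the highest of its group in 54. The summed FPKM of the genes was 1597 ± 156 in control, 1615 ± 94.1 with PM2.5 and 1945 ± 333 with lactoferrin plus PM2.5 (SD, n = 3), and these ranges overlap. Without lactoferrin plus PM2.5 replicate 1, the median log2 difference from PM2.5 was 0.11 in place of 0.24, and 68 estimates were positive and 8 negative. Without replicate 3 of that group it was 0.36.

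Other gene families were ordered alike in part. Among 84 tested cytosolic ribosomal protein genes, lactoferrin plus PM2.5 replicate 1 was the highest of its group in 81 and replicate 3 the lowest in 80, and control replicate 1 the highest of its group in 79. Among the 13 protein-coding genes of the mitochondrial genome, lactoferrin plus PM2.5 replicate 1 was also the highest of its group, in all 13, but control replicate 1 was the lowest of its group in 12 and control replicate 3 the highest in 11. What sets the libraries apart along this axis was not tested.

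**Figure D3:**
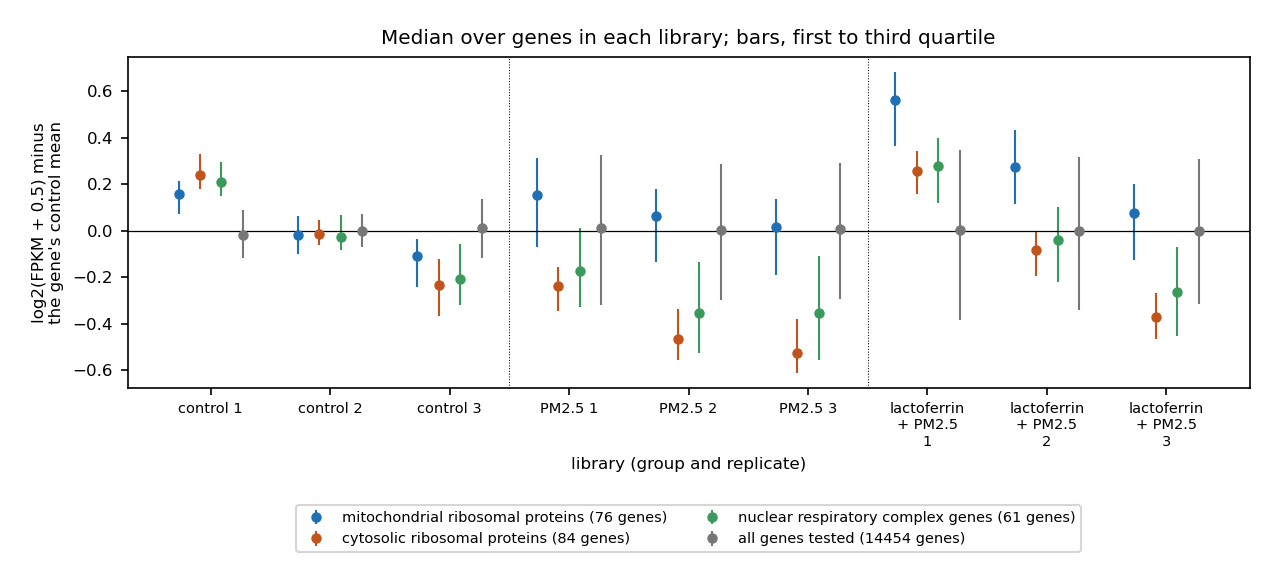
For each of the 9 libraries, points are the median over genes of log2(FPKM + 0.5) minus the control mean of the gene, with bars from the first to the third quartile, for mitochondrial ribosomal proteins, cytosolic ribosomal proteins, nuclear respiratory complex genes and all tested genes. These 3 nuclear families move together between replicates of a group, from 0.56 to 0.08 for the mitochondrial ribosomal proteins across the lactoferrin libraries. The scaling of the libraries holds the median of all tested genes near 0.

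Lactoferrin plus PM2.5 against control was the third comparison. It called 22 of the 76 genes higher and 1 lower by limma, where 19.9% of all tested genes were called higher and 18.5% lower. The median log2 fold change was 0.32, with 65 positive and 11 negative estimates. The small subunit had 9 higher of 26 (median 0.36) and the large subunit 13 higher and 1 lower of 49 (median 0.26). Without lactoferrin plus PM2.5 replicate 1 the counts were 18 higher and 4 lower, with a median of 0.19. Leaving out control replicate 3 as well gave 17 higher and 8 lower, with a median of 0.09, and 14 of those 17 were among the 22. Without lactoferrin plus PM2.5 replicate 3 there were 37 higher genes, the 22 among them, and with weighted libraries 41 higher and 6 lower.

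All 8 genes that had risen with PM2.5 alone were among the 22. The largest changes were those of MRPS30 at 0.71 (SE 0.08, adjusted p = 0.000123), MRPS18B at 0.67 (SE 0.15, adjusted p = 0.00634) and MRPS2 at 0.64 (SE 0.13, adjusted p = 0.00433), all by limma. MRPL33 was still lower, at −0.56 (SE 0.14, adjusted p = 0.0127 by limma). MRPL54 was at −0.30 and MRPS14 at −0.25, and neither was called (adjusted p = 0.160 and 0.156 by limma).

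The other 14 were called against control only when lactoferrin had been given. Their log2 fold changes were 0.30 to 0.63 in that comparison and 0.02 to 0.30 with PM2.5 alone, and none passed the test between lactoferrin plus PM2.5 and PM2.5, so a difference between the exposed groups was not shown for any of them. The 6 small or large subunit genes with the largest changes among them are described first. MRPS6, with a bacterial homologue, was at 7.35, 6.68 and 5.81 FPKM in control, at 8.16, 7.63 and 8.48 with PM2.5 and at 12.9, 10.4 and 8.42 with lactoferrin plus PM2.5, a log2 fold change of 0.63 against control (adjusted p = 0.00821 by limma). Of the exon length of MRPS6, 6.35% is shared with SLC5A3 on the same strand, a gene at 4.27 to 11.05 FPKM. MRPL37, specific to mitochondria, was at 43.5, 41.9 and 43.3 FPKM in control, at 57.8, 50.1 and 49.2 with PM2.5 and at 74.7, 66.0 and 57.6 with lactoferrin plus PM2.5, a log2 fold change of 0.61 (adjusted p = 0.00201 by limma). In both genes all exposed libraries exceeded all control libraries.

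MRPL22, whose bacterial homologue lines the exit tunnel, had a log2 fold change of 0.59 (adjusted p = 0.0369 by limma) from a control level of 5.49, 5.41 and 3.46 FPKM. Control replicate 3 was low in this gene. The call was lost without that library (adjusted p = 0.104 by limma), and also without lactoferrin plus PM2.5 replicate 1 (0.110) or 2 (0.0869) or PM2.5 replicate 2 (0.0532). MRPL18, whose bacterial homologue binds an RNA of the large subunit, was at 0.56 (adjusted p = 0.00756), MRPL9 at 0.53 (adjusted p = 0.0107) and MRPL35 at 0.50 (adjusted p = 0.00345), all by limma. These 3 were called under every alternative that was run. MRPL39 and MRPL47 were at 0.47 and 0.41, MRPS34 and MRPS35 at 0.40 and 0.38, MRPL2 and MRPL42 at 0.37, MRPS22 at 0.36 and MRPL3 at 0.30, with adjusted p from 0.0160 for MRPS35 to 0.0474 for MRPS34 by limma. Variants of MRPS22, MRPS34 and MRPL3 are known from inherited disorders of mitochondrial translation.

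**Figure D4:**
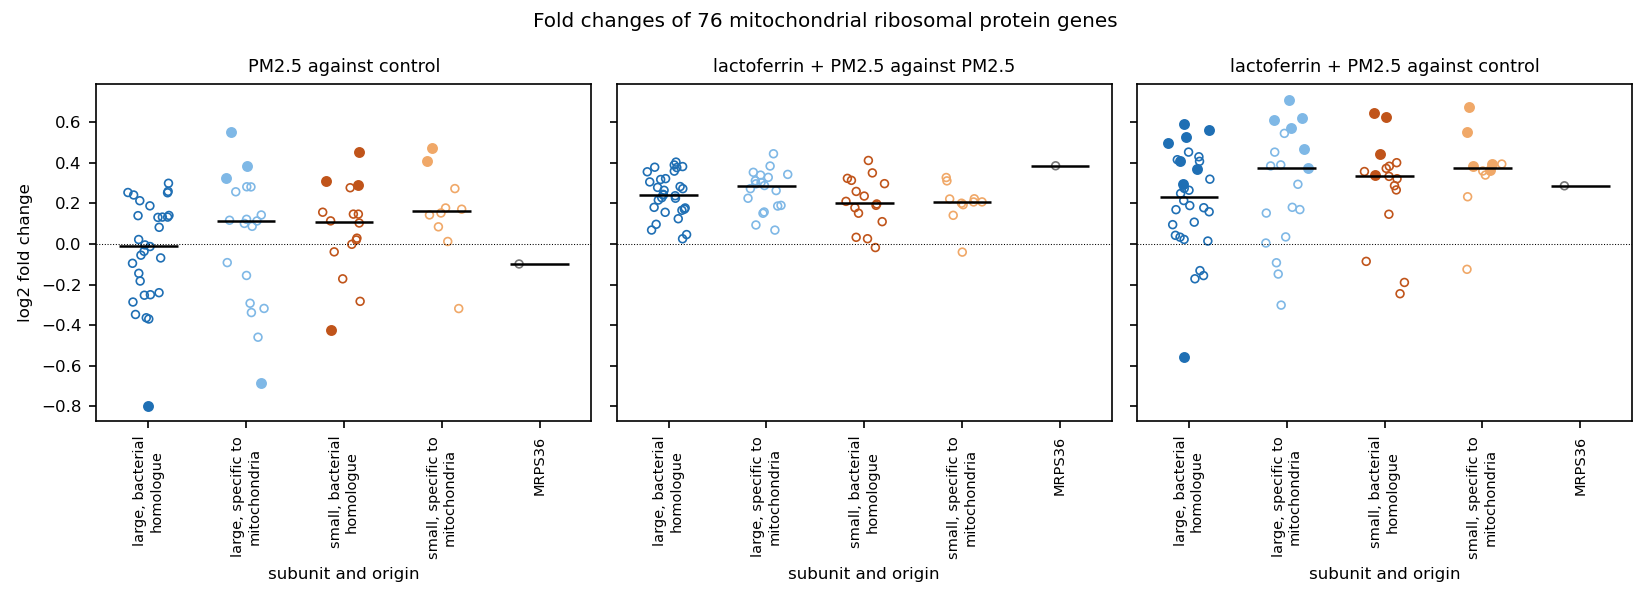
Log2 fold changes of the 76 tested genes in 3 comparisons, by subunit and origin, with filled points for genes called at an adjusted p under 0.05, open points for the others and a bar at the median of each group. In the middle panel 74 of 76 points lie above 0 and none is filled, and in the right panel 22 are filled above 0 and 1, MRPL33, below.

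Genes named for their role in the particle mostly did not pass the test. The stalk that recruits translation factors is built on MRPL10, MRPL11 and MRPL12, and MRPL12 also binds the mitochondrial RNA polymerase. Their log2 fold changes with PM2.5 were 0.13, −0.29 and 0.25 (adjusted p = 0.432, 0.202 and 0.479 by limma), and those against control with lactoferrin were 0.18, 0.10 and 0.43. MRPL12 had a wide spread, with control libraries at 27.4, 20.4 and 12.1 FPKM. MRPS12, at the decoding centre, had 0.02 with PM2.5 and 0.33 with lactoferrin plus PM2.5 against control, and its control libraries ran from 9.41 to 18.4 FPKM. MRPL58 (ICT1), a peptidyl-tRNA hydrolase that became a ribosomal protein, had 0.12 and 0.38 (adjusted p = 0.576 and 0.0779 by limma).

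The human relatives of bacterial S18 are MRPS18A, MRPS18B and MRPS18C, which occupy different places in the ribosome. MRPS18B rose with PM2.5, as given above. MRPS18A had a log2 fold change of 0.11 with PM2.5 and 0.45 with lactoferrin plus PM2.5 against control (adjusted p = 0.623 and 0.0539 by limma), and MRPS18C had 0.10 and 0.40 (adjusted p = 0.635 and 0.0671 by limma). In the files MRPS18B averaged 29.8 FPKM in control, MRPS18A 16.1 and MRPS18C 3.23. MRPS36, the non-ribosomal bearer of the name, had −0.10 with PM2.5 and 0.29 with lactoferrin plus PM2.5 against control, neither called.

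The RNA that these proteins are assembled on was measured beside them. MT-RNR1, the small-subunit RNA, was at 1795, 2639 and 2043 FPKM in control, at 2372, 1415 and 1264 with PM2.5 and at 1432, 1669 and 1316 with lactoferrin plus PM2.5. Its log2 fold change with PM2.5 was −0.40 (adjusted p = 0.234 by limma). MT-RNR2, the large-subunit RNA, averaged 8878 FPKM in control, 7340 with PM2.5 and 6056 with lactoferrin plus PM2.5. It was called lower in the last group against control, at −0.54 (SE 0.19, adjusted p = 0.0458 by limma), the opposite sign to most of the protein genes. How much of such RNA a library holds depends on how RNA was selected, which is not given in the sources used here.

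Of 5 ribosome subunits whose symbols fall outside the rule, DAP3, a GTP-binding protein of the small subunit, rose with PM2.5 by 0.37 on the log2 scale (SE 0.10, adjusted p = 0.0145 by limma), and the other 4 were not called. Among 26 tested factors of ribosome assembly and RNA maturation 5 rose and 0 fell. They included the helicases DHX30 at 0.47 and DDX28 at 0.44 and the methyltransferase MRM3 at 0.46, with adjusted p = 0.00182, 0.0197 and 0.00605 by limma. ERAL1, a chaperone of the small-subunit RNA, was at 0.28. Both shares, like those of the ribosomal proteins, stand beside a background of 18.7% higher and 16.5% lower. The same background applies to the PM2.5 counts of the lists and families that follow.

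Translation factors had 3 higher and 1 lower of 14. OXA1L, the insertase that receives the products of the mitochondrial ribosome, was at 0.52 (adjusted p = 0.00205 by limma), the elongation factor TUFM at 0.31 (adjusted p = 0.0277) and the ribosome recycling factor GFM2 at 0.27 (adjusted p = 0.0366). MTIF3, an initiation factor, fell, at −0.49 (adjusted p = 0.0162 by limma). Mitochondrial aminoacyl-tRNA synthetases and the related amidotransferase genes had 6 higher and 3 lower of 20. MARS2 for methionine was at 0.75 (adjusted p = 0.00173), EARS2 for glutamate at 0.46 (adjusted p = 0.00223) and LARS2 for leucine at 0.53 (adjusted p = 0.00364), while HARS2 for histidine was at −0.47 (adjusted p = 0.00154), all by limma.

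Among 14 regulators and genes of mitochondrial transcription 5 rose and 1 fell with PM2.5. The mitochondrial RNA polymerase POLRMT was at 0.78 (adjusted p = 0.000348) and the nuclear receptor ESRRA at 0.79 (adjusted p = 0.00139), and the coactivator PPARGC1A was at −1.42 (adjusted p = 0.000181), from 2.20 to 0.518 FPKM, all by limma. PPRC1, a relative of that coactivator, was at 0.46 (adjusted p = 0.0172 by limma). TFAM, which packages the mitochondrial genome, was at −0.05 and not called (adjusted p = 0.761 by limma). Mitochondrial chaperones and proteases had 3 higher and 0 lower of 11, namely HTRA2 at 0.66, HSPA9 at 0.61 and LONP1 at 0.54, with adjusted p from 0.00288 to 0.00724 by limma.

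Related gene families are given for comparison, each by its own counts and median, and no difference between families was tested. Of 84 tested cytosolic ribosomal protein genes 2 were called higher and 20 lower with PM2.5, with a median log2 fold change of −0.41, where the mitochondrial ribosomal protein genes had 0.10. Of 61 tested nuclear genes of respiratory complexes I to IV 0 were higher and 13 lower, with a median of −0.30. Between the exposed groups the medians were 0.34 for the cytosolic and 0.30 for the respiratory genes, near the 0.24 of the mitochondrial ribosomal protein genes, with 0 called in each family. Against control the families with lactoferrin stood at −0.06, −0.03 and 0.32 respectively. The 13 protein-coding genes of the mitochondrial genome, the only messages the mitochondrial ribosome reads, had medians of 0.04 with PM2.5 and −0.17 with lactoferrin plus PM2.5 against control, where 3 were called lower.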

How the data were processed

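Values were deposited by the authors as FPKM per gene, 1 file per library. Per the submitters' processing notes, reads were handled with HISAT2 2.1.0 and featureCounts 1.6.0 on GRCh38, and Trimmomatic 0.38 and DESeq2 1.22.1 are listed too; strand use is not given in the sources used here. With GENCODE release 29 exon lengths, 86.0% to 87.3% of low values came out as whole reads (tolerance 0.05). FPKM were divided by TMM factors (0.937 to 1.03), computed here, and a pseudocount of 0.5 was added; the log2 values of the 14454 genes with at least 0.5 FPKM in 3 or more libraries were fitted with limma 3.58.1 in R 4.3.3 (3 group means over 9 libraries, trend and robust variances), with Benjamini-Hochberg adjustment over all genes and a threshold of 0.05. A fold change is a difference of log2(FPKM + 0.5), which understates the change of low genes. The fit was tested on simulated data. Figures used matplotlib 3.10.9.

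The genes and lists were chosen with earlier results of these data known. Genes were named if called, if among the largest or smallest fold changes or control levels, if below the filter, or if fixed for their role; for other lists the 4 smallest adjusted p-values were eligible, plus TUFM, TFAM, the mitochondrial ribosomal RNAs and head-to-head neighbours of named genes. Alternatives are in the closing section. The promoter strings searched for YY1 and NRF1 were shortened by 1 letter after the first counts of matches had been seen.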

Additional observations from a re-analysis of the deposited data

How the results depend on the processing

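Of the 11 mitochondrial ribosomal protein genes called with PM2.5 against control, 4 (MRPL33, MRPL54, MRPS27 and MRPS30) kept their call under all 22 alternatives; of the 23 called in lactoferrin plus PM2.5 against control, 13 did. MRPL3 held under 11 and MRPS34 under 12 of the 22. Pseudocounts of 0.1 and 1 and other scaling factors changed no count of these genes by over 1.5 times. The cause of the changes below was not tested.

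With PM2.5 against control (8 higher, 3 lower), removing a trend in length and GC gave 15 and 7, library weights (from 0.229 to 3.99) 23 and 16, and no filter on low values 3 higher; fitting only the 6 libraries gave 6 lower. Leaving out control replicate 3 and lactoferrin plus PM2.5 replicate 1 together gave 13 and 16, with a median of −0.0076. Leaving out 1 library gave 3 to 13 higher, 2 to 6 lower, medians from 0.0037 (without control replicate 3) to 0.15, and 3717 to 5873 calls among all genes (5077 in the reported fit; 7902 with weights). The most higher calls were without lactoferrin plus PM2.5 replicate 1, the fewest without PM2.5 replicate 2.

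Between the exposed groups, library weights gave 27 higher, and all other alternatives 0. Calls among all genes were 7 in the reported fit, 16 with the trend removed, 2743 with weights, 17 by limma-voom on rebuilt reads, 2 with 6 libraries, 13 with a filter of 2 FPKM, 11 without both libraries, and 0 to 7 without 1 library. Medians without 1 library ran from 0.11 to 0.36. MRPL19 changed sign to −0.0561 with the trend removed, −0.0135 with weights and −0.0310 without both libraries, and ran from −0.0346 to 0.0604 without 1 library. MRPS24 became 0.157 with weights and 0.0927 without both libraries, and ran from −0.163 to 0.0900 without 1 library. MRPS25 ran from −0.124 to 0.00396 without 1 library.

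For lactoferrin plus PM2.5 against control (22 higher, 1 lower), the trend gave 2 lower, weights 41 and 6, no filter 14 higher, and leaving out both libraries 8 lower with a median of 0.0938. Leaving out 1 library gave 15 to 37 higher (37 without lactoferrin plus PM2.5 replicate 3), 1 to 4 lower, medians of 0.19 to 0.45, and 4192 to 5432 calls among all genes (5545 in the reported fit; 8420 with weights).

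Replicate numbers are shared between groups, but same-numbered libraries did not deviate together throughout (correlations from −0.068 to 0.179, median 0.082, against −0.179 to 0.136, median −0.021, for different numbers), and 4 of 9 libraries correlated best with their own number in both other groups. The median of these genes was highest in replicate 1 and lowest in replicate 3 in each group. With the number as a block, PM2.5 against control had 13 higher and 11 lower, lactoferrin plus PM2.5 against control 37 and 2, and the exposed groups differed in 0 of these genes and 13 of all genes.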

Other observations

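Several of the genes start head to head with a neighbour. A protein-coding gene on the other strand begins within 1000 bases upstream of the start of 17 of the 78. All 17 were tested, 22.4% of the 76, against 10.03% of 11606 tested protein-coding genes. Pairs whose starts overlap were not counted in either share. MRPL46 and MRPS11 face each other at 34 bases, the large and the small subunit from 1 stretch of DNA, and they were listed at 0.489 and 4.39 FPKM in control. Of the 14 tested neighbours, 2 were called higher and 2 lower with PM2.5, and 6 of the 13 distinct pairs had the same sign. TCP1, a subunit of the cytosolic chaperonin that starts 63 bases from MRPL18, rose from 89.1 to 112 FPKM (log2 fold change 0.33, adjusted p = 0.0220 by limma), where MRPL18 had 0.25 (adjusted p = 0.150). HELQ, a DNA helicase 76 bases from MRPS18C, fell by 0.64 on the log2 scale (adjusted p = 0.00548 by limma), where MRPS18C had 0.10 (adjusted p = 0.635). APBA3, 965 bases from MRPL54, had 0.35 (adjusted p = 0.0658), where MRPL54 had −0.69 (adjusted p = 0.00873 by limma).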
